A study of Mus musculus with 59 samples.

Results

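The step from the stem-cell-containing compartment of the bone marrow to the committed myeloid progenitor was measured in mice without Daxx, the chaperone that places histone H3.3 at repeats and other silent chromatin. RNA-seq read counts of 3 libraries of granulocyte–monocyte progenitors (GMPs) were compared with those of 3 libraries of KLS cells from the same 3 Daxx-KO animals, and all 51810 listed genes were the members of the comparison. Of these, 14649 had a mean rescaled count of 10 or more and were tested. These are 6 of the 59 samples of the series, and 6 wild-type (WT) libraries of the same 2 cell types served to show where the step differed with Daxx present. The Daxx-KO animals (numbers 22, 23 and 24) had the genotype Daxx F/F Cre +/- and the WT animals (numbers 52, 53 and 80) Daxx +/+ Cre +/-, all on C57BL/6 and all carrying Mx1Cre. In the study every animal of such a cross received pI:pC, a double-stranded RNA mimic that induces interferon and through it the Mx1-driven recombinase (Mx1Cre also acts outside the blood), and cells were taken 3 weeks post induction (w.p.i.). Ages and sexes of single animals are not given in the sources used here. KLS cells were sorted as lineage-negative, c-Kit-positive and Sca-1-positive and GMPs as lineage-negative, c-Kit-positive, Sca-1-negative, CD16/32-positive and CD34-positive. Values below are read counts on 1 joint scale, given in the order of animals 22, 23 and 24 (for WT 52, 53 and 80), and a log2 fold change is that of GMPs over KLS cells.

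KLS cells are a mixture of long-term stem cells and multipotent progenitors. Their identity depends on a set of transcription factors such as Hlf, Mecom and Meis1, on cytokine signals and on low division. GMPs arise through multipotent progenitors under Pu.1 (encoded by Spi1) and the C/EBP factors, divide fast, and make the primary granule proteases and myeloperoxidase that neutrophils and monocytes will carry. The proteins of the secondary and tertiary granules, such as lactoferrin, are normally made later, from the promyelocyte and myelocyte stages on. B-cell, T-cell and plasma cell genes are not part of either programme, although part of the KLS gate is primed for the lymphoid fate and expresses Flt3 and Dntt.

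Promoters of 3 primary granule genes of the GMP programme and of Dntt, 1 of the 2 genes with a called difference between the genotypes, are shown for context. They lie within 250 bases upstream of the RefSeq start (GRCm38.p6), run along the strand of the gene and were shortened where they met an annotated exon, and capitals mark matches to the motifs searched.
Elane, chr10:79886062-79886246, plus strand: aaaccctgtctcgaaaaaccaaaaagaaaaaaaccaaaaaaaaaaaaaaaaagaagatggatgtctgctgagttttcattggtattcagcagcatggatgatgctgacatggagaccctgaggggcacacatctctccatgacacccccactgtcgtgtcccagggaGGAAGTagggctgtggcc
Prtn3, chr10:79879417-79879613, plus strand: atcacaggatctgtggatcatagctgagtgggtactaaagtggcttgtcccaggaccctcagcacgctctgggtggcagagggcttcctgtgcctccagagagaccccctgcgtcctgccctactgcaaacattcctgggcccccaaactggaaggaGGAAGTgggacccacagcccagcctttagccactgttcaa
Ms4a3, chr19:11640852-11641101, minus strand: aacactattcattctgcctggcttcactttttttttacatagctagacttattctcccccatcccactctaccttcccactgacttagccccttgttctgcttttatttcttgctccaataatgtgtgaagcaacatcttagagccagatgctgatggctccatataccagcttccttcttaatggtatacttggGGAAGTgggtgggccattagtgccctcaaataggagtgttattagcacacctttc
Dntt, chr19:41029025-41029274, plus strand: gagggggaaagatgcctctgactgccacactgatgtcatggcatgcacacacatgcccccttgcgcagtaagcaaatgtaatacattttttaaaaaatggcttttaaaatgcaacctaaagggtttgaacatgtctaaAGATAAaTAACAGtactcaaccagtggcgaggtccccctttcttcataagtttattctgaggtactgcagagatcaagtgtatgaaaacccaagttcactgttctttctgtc
The letters GGAAGT, a core of the sites of Pu.1 and other ETS factors, lay 83 bases before the RefSeq start of Elane, 93 before that of Prtn3 and 55 before that of Ms4a3. The shortened stretches of Elane and Prtn3 (185 and 197 bases) end before that start, so these distances do not count from their last base. In Dntt the letters AGATAA, from the core of sites of Gata1 and its relatives, lay 112 bases before the start and those of TAACNG, from the core of Myb sites, 105 bases before it. Both strands of 250 bases before each start were searched, also for TTGCNNAA (C/EBP) and TGTGGT (RUNX). GGAAGT was found in 8 of 12 primary granule promoters and 5 of 23 stem cell identity promoters, against 19.74% of all promoters, 23.1% of those of tested genes, 26.92% of those of genes called higher in GMPs and 18.15% of those called lower. TTGCNNAA was found in 8.89% of the promoters of genes called higher, 6.82% of those called lower and 7.45% of those tested. The excess in primary granule promoters was not particular to GGAAGT, since TGTGGT was found in 4 of the 12, against 10.85% of those tested. TTGCNNAA was found in 2 of the 12, TAACNG in 2 and AGATAA in 0. A match of 6 letters is a description of the sequence and not a bound site.

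Depth was even. The KLS libraries of Daxx-KO held between 11384751 and 15336885 gene reads and the GMP libraries between 11795984 and 13548828. Daxx itself was at 75.7, 92.0 and 67.5 in KLS cells and 91.4, 60.8 and 84.5 in GMPs of Daxx-KO animals, against 389, 432 and 459 in KLS cells and 701, 664 and 753 in GMPs of WT, so every library labelled Daxx-KO lay below every WT library. The sort could be seen in its own genes, which are no finding: Ly6a, which encodes Sca-1, was at 168, 273 and 415 in KLS cells and 6.5, 62.9 and 10.7 in GMPs, and Fcgr3, which encodes CD16, at 185, 200.1 and 69.4 in KLS cells and 2478, 1872 and 2759 in GMPs. Other markers of the labels also held, since Procr, Mecom, Hlf and Flt3 were lower and Mpo, Elane, Prtn3, Ctsg, Ms4a3, Csf1r, Csf3r and Cebpa higher in GMPs. Low counts of lineage markers that the gates exclude were also present. Ly6g (Gr-1) was at 0 in every KLS library and reached 73.4 in GMPs of animal 23 (log2 fold change 3.96, adjusted p 0.022). Cd4 was at 22.6 or more in KLS cells and at most 9.6 in GMPs (log2 fold change −2.73, adjusted p 0.0085). Whether lineage-positive cells passed the gates was not tested. The 2 cell types were deposited in separate tables, so cell type and table cannot be told apart within a genotype. Animal 23 stood apart: its KLS library held fewer stem cell reads and more plasma cell reads, and its GMP library more late granule reads, than those of animals 22 and 24. Results that rest on it are given with and without it.

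The step changed the expression of more than 1 gene in 3. By limma, 5486 of 14649 genes were called at an adjusted p under 0.05 (37.4%), 2558 higher in GMPs (17.5%) and 2928 lower (20%). Counts of called genes in each list below are to be read beside these shares. Falls were the larger changes: 1268 genes were lower by at least 4-fold and 410 higher, and 89 were lower by at least 32-fold and 35 higher. The 3 GMP libraries lay wholly above or wholly below the 3 KLS libraries in 7132 genes (48.7%). Over all genes tested the median log2 fold change was −0.01 on the joint scale. The split of calls depends on that scale, with 2617 genes higher and 2863 lower after TMM scaling, 1731 and 3524 with equal library totals, and 1399 and 4082 on the deposited values, for which the median was −0.27. Without animal 23 there were 3373 higher and 3523 lower calls (23% and 24% of 14655 genes). Leaving out animal 22 left 1147 and 1692, and leaving out animal 24 left 1267 and 1719.

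**Figure D1:**
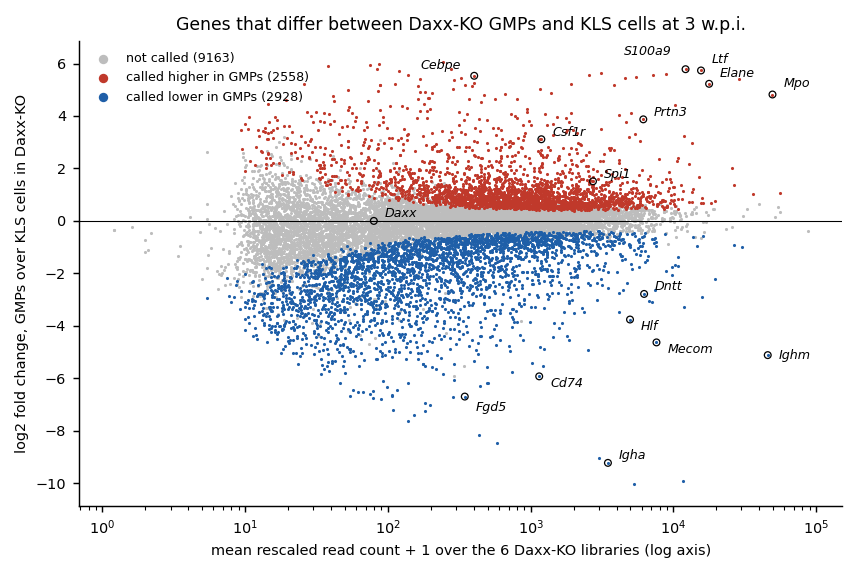
Each point is 1 of the 14649 tested genes; the x axis is its mean rescaled read count plus 1 over the 6 Daxx-KO libraries (log axis) and the y axis its log2 fold change, GMPs over KLS cells. Red marks the 2558 genes called higher and blue the 2928 called lower. Circled genes are discussed in the text: Mpo, Elane and Ltf sit at the upper right, Igha lowest of the circled genes and Daxx near 0.

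The primary granule programme was high in GMPs. Of 15 genes tested, 14 were called higher and 0 lower, with a median log2 fold change of 2.98 against −0.01 over all genes. Mpo (myeloperoxidase, chromosome 11, 87793581–87804413, plus strand) was at 1705, 7094 and 2682 in KLS cells and 123661, 55799 and 105815 in GMPs (log2 fold change 4.82, SE 0.61, adjusted p 0.00023). Elane (neutrophil elastase, chromosome 10, 79886247–79888215, plus strand) was at 535, 1674 and 790.3 in KLS cells and 41514, 22736 and 39505 in GMPs (log2 fold change 5.23, SE 0.59, adjusted p 0.00013). In both genes the lowest GMP library was that of animal 23, well below the others and still far above every KLS library. Prtn3, the gene of proteinase 3 next to Elane, was at 505, 1203 and 701 in KLS cells and 12951, 7226 and 14341 in GMPs (log2 fold change 3.87, SE 0.41, adjusted p 8.8e-05), and Ctsg (cathepsin G) at 293, 1116 and 427 in KLS cells and 11914, 5347 and 11157 in GMPs (log2 fold change 4.10, SE 0.59, adjusted p 0.00053). Ms4a3, a membrane protein that marks GMPs and their progeny, was at 50.8, 141 and 97.8 in KLS cells and 3062, 1875 and 3101 in GMPs (log2 fold change 4.86, SE 0.59, adjusted p 0.00018). For each of these genes the KLS library of animal 23 was the highest of the KLS libraries. Hp (haptoglobin, log2 fold change 5.23), Lyz2 (lysozyme, 3.3), Cst7 (cystatin F, 2.98) and the glutathione enzymes Mgst1 (2.82) and Gstm1 (2.72) were called too. Clec11a, a growth factor, was the tested member that was not called, at 38.4, 35.5 and 45.0 in KLS cells and 106, 40.9 and 96.3 in GMPs. Srgn, the proteoglycan core that packs granules, showed the smallest called rise (1.09), and it was not called without animal 22 (log2 fold change 0.77, adjusted p 0.062) or 24 (log2 fold change 0.99, adjusted p 0.055).

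Genes of the later granules had the largest median rise of all lists. Of 17 tested, 16 were called higher and 0 lower, with a median of 5.18. Ltf (lactoferrin) was at 164, 1137 and 82.2 in KLS cells and 5217, 81540.2 and 5547 in GMPs (log2 fold change 5.74, SE 0.78, adjusted p 0.00036). Ngp, a secondary granule protein, was at 497, 2652 and 336 in KLS cells and 16798, 137622 and 15114 in GMPs (log2 fold change 5.42, SE 0.62, adjusted p 0.00014). S100a9, which with S100a8 forms calprotectin, was at 278, 766 and 185 in KLS cells and 11760.2, 48311 and 11699 in GMPs (log2 fold change 5.78, SE 0.56, adjusted p 5.6e-05). In all of them the GMP library of animal 23 stood far above those of the other animals, whose 2 values were close. Lcn2 (lipocalin 2) reached 3785, 35001 and 3605 and Camp (cathelicidin) 3269, 15606 and 3482 in GMPs, from at most 488 and 301 in KLS cells. Without animal 23 the rise of Ltf was as large (log2 fold change 5.52, adjusted p 0.0014), as was that of S100a9 (log2 fold change 5.69, adjusted p 0.0002), and 15 of the 17 genes were called. Mmp9, the gelatinase of tertiary granules, was the member that turned on that animal, at 8.3, 7.3 and 2.0 in KLS cells and 8.6, 385 and 19.3 in GMPs, and was not called without it (log2 fold change 1.41, adjusted p 0.26), nor under 12 other of 18 alternatives. Retnlg, a gene of mature neutrophils, was at 1.0, 0.8 and 0 in KLS cells and 0, 61.8 and 42.8 in GMPs and was not called (log2 fold change 3.18, SE 1.21, adjusted p 0.062). Retnlg was called in 5 of 17 alternatives, among them DESeq2 (adjusted p 0.00016) and the fit without animal 22 (0.0036). It was not called without animal 23 (0.23) or 24 (0.34). Summed over the list the Daxx-KO GMPs held 64210.5, 428052 and 64444 and the WT GMPs 428439.7, 84109.9 and 350060.2, so that WT libraries spanned the same range.

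Monocyte genes and the regulators of the myeloid fate followed. Of 16 monocyte genes tested, 13 were called higher and 0 lower (median 2.48). F13a1, coagulation factor XIII made by monocytes, was at 478, 2322 and 641 in KLS cells and 22364, 16674 and 18914 in GMPs (log2 fold change 4.42, SE 0.56, adjusted p 0.00023). Csf1r, the receptor of the macrophage growth factor M-CSF, was at 169, 428 and 196 in KLS cells and 2221, 1839 and 2273 in GMPs (log2 fold change 3.11, SE 0.29, adjusted p 4.9e-05). Ccr2, the chemokine receptor by which monocytes leave the marrow, was at 96.5, 374 and 125 in KLS cells and 1829.7, 1116 and 1842 in GMPs (log2 fold change 3.22, SE 0.46, adjusted p 0.00049), and Ly6c2, the surface marker of inflammatory monocytes, at 642, 758 and 1513 in KLS cells and 6687, 4881 and 7278 in GMPs (log2 fold change 2.78, SE 0.43, adjusted p 0.00076). In these 4 genes all GMP libraries lay above all KLS libraries, and KLS animal 23 was higher than its companions in F13a1, Csf1r and Ccr2. Cd14 and Ctss, markers of mature monocytes, were not called, with log2 fold changes of −0.61 and −0.50.

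Of 20 myeloid transcription factors tested, 10 were called higher and 3 lower (median 1.10). Cebpe, the C/EBP factor of late granulopoiesis, was at 41.5, 16.9 and 4.9 in KLS cells and 655, 1038 and 652 in GMPs and had the largest rise of the list (log2 fold change 5.53, SE 0.48, adjusted p 3.6e-05). Cebpa, which GMPs need in order to form, was at 171, 279 and 204 in KLS cells and 1582, 779 and 1410.3 in GMPs (log2 fold change 2.49, SE 0.33, adjusted p 0.00029), and Cebpd at 56, 61.3 and 68.5 in KLS cells and 769, 928 and 556 in GMPs (log2 fold change 3.55, SE 0.36, adjusted p 6.9e-05). Spi1 (chromosome 2, 91082390–91115756, plus strand) rose by less but with little spread, from 1361, 1509 and 1386 to 3954, 4364 and 3824 (log2 fold change 1.51, SE 0.14, adjusted p 5.3e-05). Irf8 and Klf4, which direct cells to the monocyte and dendritic fates, were called with log2 fold changes of 2.69 and 3.40, and Gfi1, the repressor that favours the neutrophil fate, with 2.12. Neutrophil-side and monocyte-side regulators were thus both higher in the same libraries. The 3 called lower were Egr1 (−1.96), Jun (−0.90) and Etv6 (−0.92). Egr1 and Etv6 were not called without animal 22 or 24 (adjusted p between 0.079 and 0.13), and Jun not without animal 23 or 24 (0.086 and 0.11) or without the animal block (0.30). Runx1 and Myb, which act in both compartments, were abundant in all libraries and not called, with log2 fold changes of −0.32 and 0.40. Without animal 23 both were called, Runx1 lower (log2 fold change −0.66, adjusted p 0.0083) and Myb higher (log2 fold change 0.61, adjusted p 0.0023). Myb was also called without the animal block (adjusted p 0.042).

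**Figure D2:**
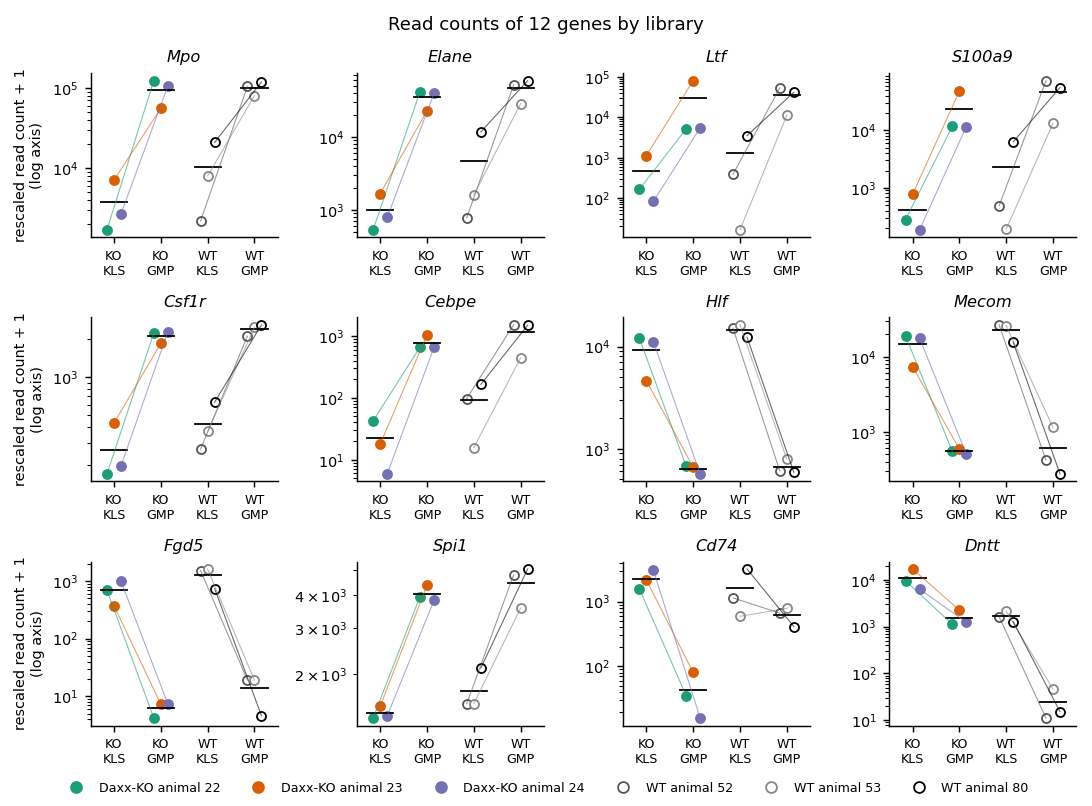
Rescaled read counts plus 1 (log axis) of 12 genes in each library; filled points are Daxx-KO animals, open points WT animals, thin lines join the KLS and GMP library of an animal, and the black bar is the mean of 3 libraries. Granule and myeloid genes climb from KLS cells to GMPs in every animal, Hlf, Mecom and Fgd5 drop in every animal, Cd74 drops steeply in Daxx-KO, and Dntt drops less in Daxx-KO than in WT.

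All 8 tested genes of the NADPH oxidase, the enzyme of the respiratory burst, were called higher (median 2.05). Cybb, its catalytic subunit, was at 372, 746 and 478 in KLS cells and 4528, 17489 and 4229 in GMPs (log2 fold change 3.76, SE 0.41, adjusted p 0.0001), and the cytosolic subunits Ncf1 and Ncf4 had log2 fold changes of 2.39 and 2.20. Of 32 cytokine receptor genes, 14 were called higher and 8 lower, beside 17.5% and 20% of all genes. Besides Csf1r and Ccr2, the neutrophil chemokine receptor Cxcr2 was higher, at 7.3, 35.5 and 25.4 in KLS cells and 117, 219 and 151 in GMPs (log2 fold change 2.98, SE 0.46, adjusted p 0.00081). On the side of the falls stood Flt3, a receptor of multipotent and lymphoid progenitors, at 7121, 5553 and 5295 in KLS cells and 1028, 833 and 1176 in GMPs (log2 fold change −2.57, SE 0.27, adjusted p 7.8e-05). Of 22 pattern recognition receptors, 8 were called higher and 5 lower, beside the same 17.5% and 20%. The C-type lectin receptors Clec5a (4.86), Clec7a (3.32, a receptor of fungal glucan) and Clec12a (2.98) led the rises. Tlr3, the endosomal receptor of double-stranded RNA, was at 22.8, 40.3 and 34.2 in KLS cells and 3.2, 3.1 and 1.1 in GMPs and was called lower (log2 fold change −3.3, SE 0.66, adjusted p 0.0034).

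The stem cell identity genes were lower in GMPs without exception among those tested. Of 35 listed, 30 were tested and all 30 were called lower, with a median log2 fold change of −3.41; 4 others were listed at 0 in all libraries and 1 had too low a mean. Hlf (chromosome 11, 90336536–90390895, minus strand), a transcription factor whose expression marks stem cells, was at 12124, 4643 and 11136 in KLS cells and 673, 659 and 566 in GMPs (log2 fold change −3.76, SE 0.25, adjusted p 1.3e-05). Mecom, which encodes EVI1, was at 18932, 7382 and 17719.6 in KLS cells and 546, 592 and 499.7 in GMPs (log2 fold change −4.63, SE 0.33, adjusted p 1.6e-05), and Meis1, the cofactor of homeobox proteins, at 14502, 6858 and 14989 in KLS cells and 1300.5, 1327 and 1449.9 in GMPs (log2 fold change −3.07, SE 0.28, adjusted p 4.6e-05). In each of the 3 the KLS library of animal 23 held far fewer reads than the others, while the 3 GMP libraries were close. Fgd5, an exchange factor restricted to stem cells, had the largest fall of the list, from 692, 371 and 989 to 3.2, 6.3 and 6.4 (log2 fold change −6.70, SE 0.39, adjusted p 8.7e-06). Procr, the protein C receptor used to sort stem cells, was at 191, 146 and 202 in KLS cells and 2.2, 27.2 and 3.2 in GMPs (log2 fold change −4.63, SE 0.69, adjusted p 0.00064), and Mycn, a Myc family member of the earliest progenitors, at 1607, 924 and 1532 in KLS cells and 65.6, 23.1 and 68.5 in GMPs (log2 fold change −4.77, SE 0.25, adjusted p 7e-06). The niche ligand gene Angpt1 (−3.28), the calcium channel gene Trpc6 (−4.79), Prdm16 (−4.37), Vwf (−3.75) and the fetal growth regulator Hmga2 (−2.79) were lower as well. Without animal 23 the median was −3.67 and the same number, 30, was called lower.

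Homeobox genes showed the same direction. Of 9 tested, 8 were called lower and 0 higher, with Hoxa10 at 180.5, 129.9 and 172 in KLS cells and 16.1, 23.1 and 16.1 in GMPs (log2 fold change −3.06, SE 0.40, adjusted p 0.0003). Of the growth-factor, Notch and Wnt genes that act on stem cells, 15 of 27 were called lower and 2 higher, among them the Wnt receptor Fzd6 (−2.93), the Wnt effector Tcf7l2 (−2.75) and the TGF-beta co-receptor Tgfbr3 (−1.85). The endothelial-type genes Emcn (−5.46), Robo4 (−5.03) and Esam (−4.30) were among 12 of 34 genes of the adhesion list called lower, with 10 called higher. Over all genes 20% were called lower and 17.5% higher.

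Most lymphoid priming genes were lower in GMPs. Of 19 lymphoid priming genes, 14 were called lower and 1 higher (median −1.41). Dntt, the terminal transferase of lymphoid progenitors (chromosome 19, 41029275–41059525, plus strand), was at 9501, 16981 and 6326 in KLS cells and 1123, 2251 and 1234 in GMPs (log2 fold change −2.78, SE 0.27, adjusted p 5.6e-05). Lax1, a membrane adaptor of lymphocytes, was at 985, 1202 and 858 in KLS cells and 32.3, 72.3 and 46.0 in GMPs (log2 fold change −4.37, SE 0.25, adjusted p 8.7e-06), and Mn1, a transcriptional coactivator, at 1910.2, 982 and 1274 in KLS cells and 88.2, 68.1 and 87.7 in GMPs (log2 fold change −4.03, SE 0.27, adjusted p 1.3e-05). Both had GMP counts far below the KLS counts in every animal. Ikzf1, the lymphoid regulator that all these cells express, was at 14698, 13337 and 13527 in KLS cells and 10057, 14001 and 8774 in GMPs and was not called (log2 fold change −0.37, SE 0.18, adjusted p 0.13). It was called lower without animal 23 (log2 fold change −0.59, adjusted p 0.0033), on the deposited values (0.016) and with equal library totals (0.033).

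Some genes of differentiated lymphocytes were lower in GMPs, immunoglobulin genes above all. Summed over the B lineage list the KLS libraries held 55548, 132506 and 135537 and the GMP libraries 8329, 19117 and 9333. In WT the same sums were 11174, 6261 and 105404 in KLS cells and 10959, 5825 and 9771 in GMPs. Most of the Daxx-KO KLS sums was the count of Ighm alone. Of 21 genes tested, 10 were called lower and 1 higher. That 1 was Cd24a, which early myeloid cells also express, named after its value was seen and not called without animal 22 (adjusted p 0.17). Ighm, the constant region of IgM, was at 46857, 92051 and 128727 in KLS cells and 2007, 2129 and 3107 in GMPs (log2 fold change −5.12, SE 0.70, adjusted p 0.00038). Pax5, the B-cell commitment factor, was at 352, 4493 and 75.3 in KLS cells and 152, 1431 and 89.9 in GMPs, mostly in animal 23, and was not called (log2 fold change −0.87, SE 0.67, adjusted p 0.33). The plasma cell list summed to 6799, 37844 and 15313 in KLS cells and 4604, 3362 and 4609 in GMPs, with 9 of 13 genes called lower. Genes such as Igha could pass the filter on the mean through KLS counts alone, which favoured a call of lower in advance. Igha, the constant region of IgA, was at 700.4, 18864 and 1292 in KLS cells and 1.1, 6.3 and 4.3 in GMPs (log2 fold change −9.22, SE 0.58, adjusted p 9.2e-06), which in reads is 25381 reads in KLS cells against 11 in GMPs, a ratio of 2016 (95% counting interval 1127 to 4039). Jchain, which joins IgA and IgM into polymers, was at 1728, 11249.6 and 5124 in KLS cells and 6.5, 2.1 and 28.9 in GMPs (log2 fold change −9.04, SE 0.92, adjusted p 7e-05). Without animal 23 Igha was also called lower (log2 fold change −8.17, adjusted p 4.3e-06), as was Jchain (log2 fold change −7.64, adjusted p 0.00013).

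Immunoglobulin genes led the falls. Among called genes with a mean count of 100 or more and no overlap, 9 of the 12 with the largest fall were immunoglobulin genes. The others were Jchain, Gm30211, which overlaps the Igkc locus, and the predicted gene Gm5833. Immunoglobulin genes could reach that mean through KLS counts alone, as Igkv4-59 did with means of 1164.5 in KLS cells and 1.1 in GMPs. Their place among the falls was thus favoured in advance and is no separate support. Igkv14-126 was at 6896, 10402 and 14223 in KLS cells and 1.1, 11.5 and 32.1 in GMPs and Ighv11-2 at 14638, 27206 and 27929 in KLS cells and 10.8, 12.6 and 74.9 in GMPs. Igkv12-44 had 3095 reads in KLS cells against 2 in GMPs, a ratio of 1352 (95% counting interval 374 to 11170), and Igkv4-59 3644 reads in KLS cells against 3 in GMPs, a ratio of 1061 (95% counting interval 363 to 5149). Counting intervals cover counting error only, and segments of 1 family can share reads. These segments differed strongly between animals and between WT libraries too, since Igkv14-126 was at 549, 395 and 13536 in WT KLS cells. The 22 listed T and NK cell genes summed to 857, 1825 and 887 in KLS cells and 68.8, 76.5 and 139 in GMPs. Only 8 of the 22 passed the filter on the mean of all libraries, and KLS counts supplied most of that mean. A call of lower in GMPs was therefore favoured in advance, so the 7 of 8 called lower are no separate support. Gata3, which stem cells express as well, was at 247, 329.9 and 385 in KLS cells and 6.5, 12.6 and 36.4 in GMPs (log2 fold change −4.34, SE 0.42, adjusted p 5.6e-05). In sorted bulk samples fewer cells of a type and less RNA per cell cannot be told apart, and the part of other cells in these differences was not tested.

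**Figure D3:**
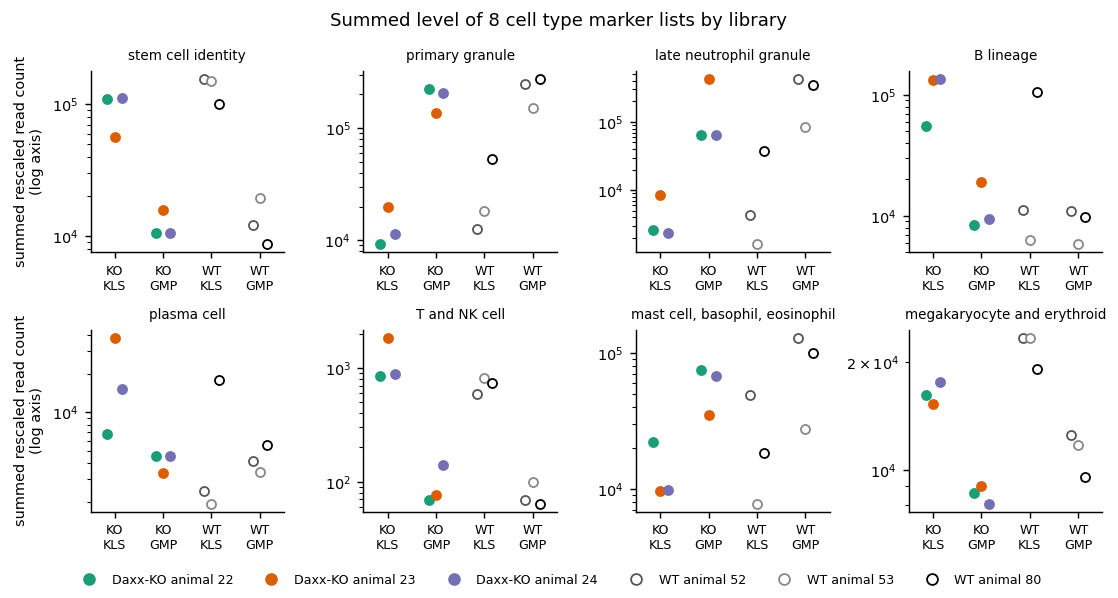
Summed rescaled read counts (log axis) of 8 cell type marker lists in each library, filled for Daxx-KO and open for WT animals. Stem cell genes are lower and granule genes higher in every GMP library than in the KLS libraries of its genotype, KLS animal 23 has the lowest stem cell and the highest plasma cell sum of the Daxx-KO KLS libraries, and the B lineage sum of WT KLS cells is high in animal 80.

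Genes of other myeloid branches split. Of 16 genes of mast cells, basophils and eosinophils, 10 were called higher and 1 lower (median 2.64). Epx, the eosinophil peroxidase, was at 7552, 781 and 1515 in KLS cells and 28289.9, 11740.4 and 21799.9 in GMPs (log2 fold change 3.22, SE 0.58, adjusted p 0.002), with its highest KLS count in animal 22, and without the animal block it was not called (adjusted p 0.075). Hdc, the enzyme that makes histamine, was at 137, 96.8 and 70.4 in KLS cells and 1915, 1833 and 1564 in GMPs (log2 fold change 4.16, SE 0.24, adjusted p 8.7e-06), and Ms4a2, the beta chain of the IgE receptor, at 27.0, 87.9 and 0 in KLS cells and 262, 368 and 418 in GMPs (log2 fold change 4.67, SE 0.96, adjusted p 0.004). The member called lower was Gata2, which is also a stem cell factor (−1.05). Of 27 megakaryocyte and erythroid genes, 8 were called lower and 3 higher, beside 20% and 17.5% of all genes. Car2, an erythroid carbonic anhydrase, was at 3833, 3014 and 4235 in KLS cells and 268, 319 and 396 in GMPs (log2 fold change −3.50, SE 0.17, adjusted p 4.8e-06). The 3 called higher, named after their values were seen, were Gata1, Pf4 and Tfrc, and without animal 22 none of them was called (adjusted p 0.086, 0.082 and 0.12).

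Antigen presentation and dendritic cell genes were lower. Of 10 MHC class II genes, 6 were called lower and 0 higher (median −1.78). Cd74, the invariant chain that guards class II molecules, was at 1571, 2155 and 3028 in KLS cells and 34.4, 79.6 and 15 in GMPs (log2 fold change −5.93, SE 0.59, adjusted p 6.3e-05). H2-Eb1 was at 55.0, 144 and 212 in KLS cells and 5.4, 31.4 and 9.6 in GMPs (log2 fold change −3.21, SE 0.44, adjusted p 0.00037) and H2-Aa at 128, 294 and 239.6 in KLS cells and 22.6, 17.8 and 33.2 in GMPs (log2 fold change −3.08, SE 0.43, adjusted p 0.00044). The highest GMP count of each of the 3 lay below the lowest KLS count. H2-DMb1, which loads peptide onto class II molecules, was not called (0.31). Of 14 dendritic cell genes, 8 were called lower and 1 higher. That 1 was Irf8, which the monocyte list also holds.

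Interferon-stimulated genes were lower in GMPs 3 weeks after an interferon-inducing treatment that all animals had received. Of 47 tested, 29 were called lower and 1 (Gbp3, named after its value was seen and not called without animal 22, adjusted p 0.11) higher, with a median of −1.12. Iigp1, an interferon-inducible GTPase, was at 506, 892 and 567 in KLS cells and 16.1, 106 and 33.2 in GMPs (log2 fold change −4.0, SE 0.38, adjusted p 5.2e-05). Ifi44 was at 176, 289 and 267 in KLS cells and 8.6, 6.3 and 19.3 in GMPs (log2 fold change −4.42, SE 0.45, adjusted p 6.6e-05), and Irf7, the factor that amplifies the interferon response, at 200.3, 402 and 198 in KLS cells and 8.6, 98.5 and 28.9 in GMPs (log2 fold change −3.05, SE 0.42, adjusted p 0.00038). KLS counts lay above GMP counts in every pairing of libraries for these 3. Ly6e, an interferon-inducible surface protein, was at 3526, 7322 and 4434 in KLS cells and 7903, 5862 and 8841 in GMPs and was not called (log2 fold change 0.61, SE 0.25, adjusted p 0.078). Ly6e was called higher in 2 of 18 alternatives, without animal 23 (log2 fold change 1.08, adjusted p 0.00016) and by DESeq2 (adjusted p 0.047). In WT the median of the list was −0.96. Of 20 genes that sense foreign RNA and DNA, 9 were called lower and 2 higher, with the nucleic acid sensor Zbp1 lower (−2.92) and the DNA receptor Tlr9 higher (2.43). Immediate early genes, which respond to stress within minutes, were called lower in 10 of 25 and higher in 4, beside 20% and 17.5% of all genes.

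Division genes were higher in GMPs. All 31 tested genes of the G2 and M phases were called higher, with a narrow range of log2 fold changes (median 1.26). Cdca8, of the chromosomal passenger complex, was at 428, 907 and 477 in KLS cells and 2085, 1775 and 1426 in GMPs (log2 fold change 1.61, SE 0.27, adjusted p 0.0013). Kif20a, a kinesin of cytokinesis, was at 264, 609 and 259 in KLS cells and 1214, 1119 and 883 in GMPs (log2 fold change 1.61, SE 0.35, adjusted p 0.0056), and it was not called without animal 22 (log2 fold change 1.32, adjusted p 0.056). Of 37 replication genes, 24 were called higher and 0 lower, and Rrm2, a subunit of ribonucleotide reductase, was at 541, 1545 and 617 in KLS cells and 2436, 3077 and 2170 in GMPs (log2 fold change 1.66, SE 0.31, adjusted p 0.0022). KLS animal 23 held the highest KLS counts of Cdca8, Kif20a and Rrm2, and animal 23 had the smallest step of the 3 animals in both lists. The median step within animals was 1.74, 0.76 and 1.29 for the G2 and M list and 1.07, 0.28 and 0.88 for replication. Of the replication genes 33 were called without animal 23, but 11 on the deposited values and 17 with equal library totals.

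Of 24 quiescence genes, 11 were called lower and 4 higher, beside 20% and 17.5% of all genes. Neo1, the netrin receptor of dormant stem cells, was at 356, 129 and 433 in KLS cells and 11.8, 8.4 and 31.0 in GMPs (log2 fold change −4.12, SE 0.36, adjusted p 3.7e-05), and Foxo1 at 1028, 1736 and 832 in KLS cells and 188, 472 and 218 in GMPs (log2 fold change −2.08, SE 0.25, adjusted p 0.00019). Cdkn1c, the imprinted inhibitor of cyclin-dependent kinases, was at 56, 38.7 and 80.2 in KLS cells and 7.5, 15.7 and 4.3 in GMPs (log2 fold change −2.64, SE 0.74, adjusted p 0.018) and was not called without animal 22 (log2 fold change −2.60, adjusted p 0.087) or 24 (log2 fold change −1.99, adjusted p 0.15). The inhibitors called higher, Cdkn2c and Cdkn2d with Btg1 and Klf6, were named after their values were seen, and without animal 22 they were not called (adjusted p between 0.1 and 0.15). Klf6 was not called without animal 23 either (adjusted p 0.07). Imprinted genes, of which Cdkn1c is one, stood on the side of the falls, with 7 of 15 called lower and 0 higher, Sgce (−3.73) and the growth factor adaptor Grb10 (−2.08) among them. Of 20 p53 targets, 7 were called lower and 2 higher, again beside 20% and 17.5% of all genes. The lower ones included the autophagy and stress protein gene Trp53inp1 (log2 fold change −1.94, SE 0.20, adjusted p 7.1e-05).

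Many genes that supply protein secretion and energy were higher in GMPs, with the smallest steps again in animal 23. Of 32 endoplasmic reticulum folding genes, 23 were called higher and 1 (Sil1, named after its value was seen and not called without animal 22, adjusted p 0.073) lower, with a median of 0.95. Calr (calreticulin), the chaperone of glycoproteins such as myeloperoxidase, was at 8225, 12747 and 8864 in KLS cells and 58801, 27385 and 39384 in GMPs (log2 fold change 2.03, SE 0.28, adjusted p 0.00042), and Hspa5 (BiP) at 3932, 6122 and 3809 in KLS cells and 18470.2, 9684 and 14530 in GMPs (log2 fold change 1.61, SE 0.27, adjusted p 0.0012). Of 42 nuclear genes of oxidative phosphorylation, 24 were called higher and 0 lower, but 9 on the deposited values and 15 with equal library totals. Cox5b, a subunit of cytochrome oxidase, was at 696, 886 and 629 in KLS cells and 2274, 1263 and 1861 in GMPs (log2 fold change 1.26, SE 0.22, adjusted p 0.0015). The median step of this list within animals was 1.19, 0.08 and 0.92, and without animal 23 35 genes were called. Ribosome biogenesis genes were called higher in 8 of 32, beside 17.5% of all genes, in 2 on the deposited values and 5 with equal library totals. Without animal 23 the count was 28, beside 23% of all genes. That animal alone had a median step below 0 (0.90, −0.15 and 0.58). Rrs1, a ribosome assembly factor, was at 491, 688 and 455 in KLS cells and 1759, 867 and 1169.5 in GMPs (log2 fold change 1.18, SE 0.26, adjusted p 0.0062), and was not called without animal 22 (log2 fold change 0.85, adjusted p 0.067) or 24 (log2 fold change 1.09, adjusted p 0.051).

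Of 28 genes of glycolysis and gluconeogenesis, 18 were called higher and 2 lower (13 and 5 on the deposited values). Hk3, the hexokinase of myeloid cells, was at 1080.1, 999 and 1182 in KLS cells and 4892, 6038 and 4991 in GMPs (log2 fold change 2.28, SE 0.24, adjusted p 8.3e-05). Gpi1, the next enzyme of the pathway, was at 3032, 3844 and 2979 in KLS cells and 9605, 11489 and 8985 in GMPs (log2 fold change 1.61, SE 0.17, adjusted p 8.3e-05). Fbp1, the rate-limiting enzyme of gluconeogenesis, was at 274, 324 and 376 in KLS cells and 654, 487 and 707 in GMPs (log2 fold change 0.92, SE 0.23, adjusted p 0.011). Its rise was not called without animal 22 (log2 fold change 0.75, adjusted p 0.1) or 24 (log2 fold change 0.92, adjusted p 0.072). The lower ones were Aldoc (−2.44) and, named after its value was seen, Pfkm. Beside 17.5% and 20% of all genes, cholesterol synthesis genes were called in few cases, 3 higher and 1 lower of 24. The latter was Srebf2, the factor that switches the pathway on, at 3424, 3109 and 3379 in KLS cells and 1670.5, 1916 and 1832 in GMPs (log2 fold change −0.87, SE 0.16, adjusted p 0.0019).

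Of 33 tested genes of histone H3.3 chaperones, DNA methylation enzymes and other silencing factors, 6 were called higher and 4 lower, beside 17.5% and 20% of all genes (11 higher and 4 lower without animal 23). Those called higher included the replication-coupled histone chaperone Asf1b, at 185, 440.4 and 153 in KLS cells and 604, 1024 and 586 in GMPs (log2 fold change 1.62, SE 0.24, adjusted p 0.0006), and Chaf1a, a subunit of the chromatin assembly factor, at 927, 1397 and 1052 in KLS cells and 2777, 2304 and 1966 in GMPs (log2 fold change 1.07, SE 0.19, adjusted p 0.0021). Tet1, which oxidises methylcytosine, was lower, from 1823, 1626 and 1815 to 540, 644 and 631 (log2 fold change −1.54, SE 0.15, adjusted p 6.3e-05), as was the de novo methyltransferase Dnmt3b, from 1441, 1366 and 1246 to 725, 542 and 598 (log2 fold change −1.13, SE 0.15, adjusted p 0.00038). In each of these 4 genes the 2 cell types did not overlap.

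Several of the largest rises lay outside the lists. Among called genes with a mean count of 100 or more, the largest rise was that of Lrg1, a glycoprotein of neutrophil granules, at 7.3, 13.7 and 0 in KLS cells and 154, 1049 and 223 in GMPs (log2 fold change 6.06, SE 0.71, adjusted p 0.00016). C3, the central complement component, was at 164, 839.7 and 239 in KLS cells and 12857, 29259.7 and 9886 in GMPs (log2 fold change 5.59, SE 0.51, adjusted p 4.7e-05), and Mgl2, a galactose-binding lectin of macrophages, at 6.2, 7.3 and 2.0 in KLS cells and 341, 218 and 248 in GMPs (log2 fold change 5.56, SE 0.64, adjusted p 0.00013). Rhou, a small GTPase, was at 4.2, 5.6 and 14.7 in KLS cells and 300.1, 1026 and 296 in GMPs (log2 fold change 5.80, SE 0.72, adjusted p 0.00021). Where the lower count is below about 10, as for Lrg1 and Mgl2 in KLS cells, the fold change depends on the added 1. The other 8 of the 12 were 6 late granule genes, Cebpe and the predicted gene Gm38575.

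**Figure D4:**
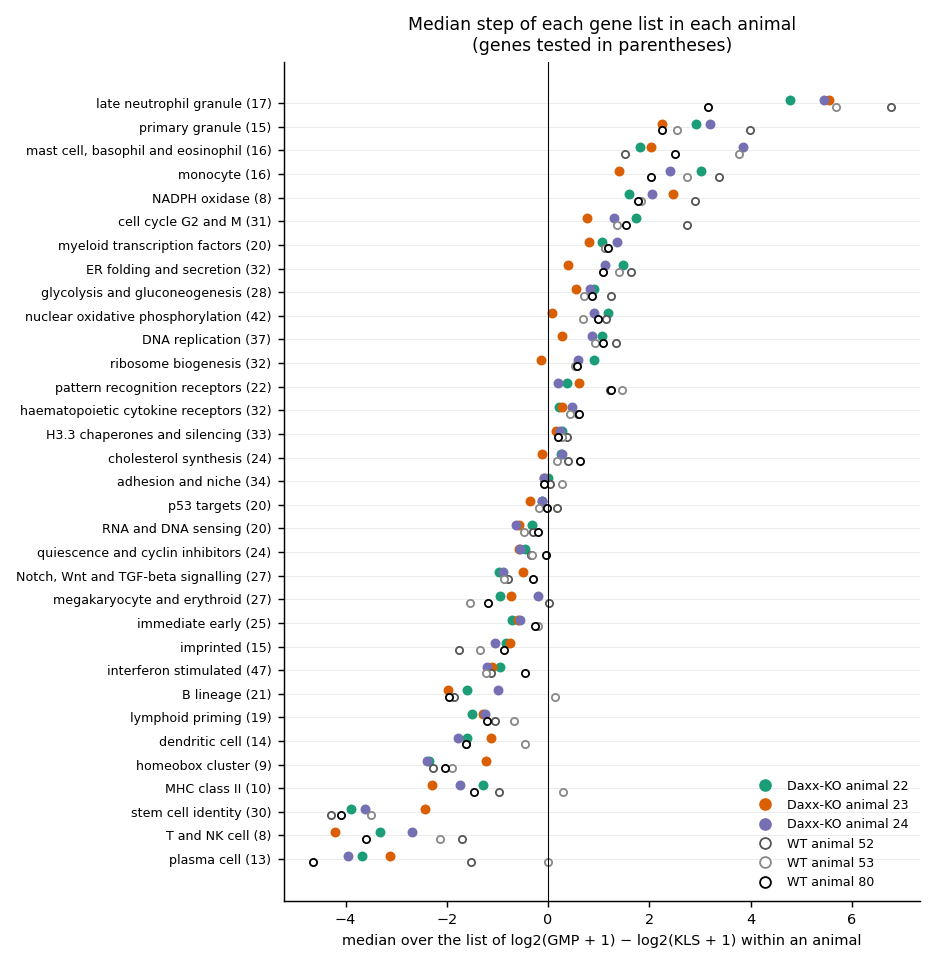
For 33 gene lists, the median over tested genes of the difference between log2(count + 1) in GMPs and in KLS cells of the same animal; filled points are Daxx-KO and open points WT animals. Granule, monocyte and mast cell lists lie to the right in all animals and stem cell, T and NK cell lists to the left in all animals.

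With Daxx present most of these genes were called in the same direction. In WT, 3487 genes were called higher (23.8%) and 3533 lower (24.1%). Of the genes called higher in Daxx-KO 89.52% were also called higher in WT, which is 65.67% of those in WT, and of those called lower 86.13%, which is 71.38% of those in WT. The median step of the stem cell list was −3.41 in Daxx-KO and −4.06 in WT, that of the primary granule list 2.98 and 2.96, and that of the late granule list 5.18 and 4.84. Across the 14649 genes, which are not independent and whose libraries share the cell type tables, Pearson's r between the steps was 0.88. The difference between the steps, in which effects of a table on all its libraries cancel, was called in 2 genes (0.0137%). At an unadjusted p under 0.05 there were 661 genes (4.51%), and DESeq2 called 25. The median SE of a difference was 0.36 on the log2 scale, so a difference of 1 log2 unit is under 3 SE for the typical gene.

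Dntt was the gene whose fall was smaller without Daxx. It went from 9501, 16981 and 6326 to 1123, 2251 and 1234 in Daxx-KO (log2 fold change −2.78, SE 0.27, adjusted p 5.6e-05) and from 1621, 2139 and 1281 to 10.2, 45.2 and 14.3 in WT (log2 fold change −6.37). Daxx-KO counts were above WT counts in both cell types without overlap, and the counts of Daxx-KO GMPs overlapped those of WT KLS cells. The difference between the steps was 3.58 (SE 0.38, unadjusted p 2.3e-06, adjusted p 0.023). It stayed between 3.18 and 4.0 over 16 alternatives, and was not called without animal 22, 23, 24 or 52 (adjusted p between 0.055 and 0.16). Nor was it called without the animal block (adjusted p 0.27), by edgeR (0.063) or with the DKO libraries, which lack Daxx and Pu.1, in the fit. Igha was the other, with a larger fall in Daxx-KO. Its WT counts were 10.9, 76.7 and 2604 in KLS cells and 1.1, 37.7 and 668 in GMPs, and the difference was −7.41 (SE 0.82, unadjusted p 3.1e-06, adjusted p 0.023). Single libraries carried these counts, animal 23 among Daxx-KO KLS cells and animal 80 in both WT cell types, and without animal 22, 24, 52, 53 or 80 Igha was not called (adjusted p between 0.055 and 0.24). It was not called with a pseudocount of 5 (adjusted p 0.055) or without the animal block (0.995) either.

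Several genes of antigen presentation and of the gate had low unadjusted p values for the difference without being called by limma, and are named by the lists or as checks. DESeq2 called 2 of them, Cd74 and Fcgr2b, as did limma without WT animal 80. Cd74 kept 662, 786 and 411 in WT GMPs against 34.4, 79.6 and 15 in those of Daxx-KO, with KLS counts that overlapped between the genotypes, and the difference was −4.82 (SE 0.84, unadjusted p 0.00016, adjusted p 0.39). H2-Aa, at 209.7, 339 and 92.9 in WT GMPs and 22.6, 17.8 and 33.2 in Daxx-KO GMPs, gave −2.20 (SE 0.61, unadjusted p 0.0047, adjusted p 0.97), and H2-Eb1 −2.42 (SE 0.62, unadjusted p 0.0027, adjusted p 0.86). Tlr3 was not called in WT, with 16.9, 32.6 and 48.2 in KLS cells and 45.3, 43.3 and 17.9 in GMPs, and gave −3.43 (SE 0.93, unadjusted p 0.0039, adjusted p 0.95). In the 4 genes every Daxx-KO GMP library lay below every WT GMP library. This adds no support, since they are named here for low unadjusted p values of the difference. The share of all genes with such a separation was not counted. Fcgr2b, one of the genes of the CD16/32 sort marker, was at 1144, 1037 and 1016 in KLS cells and 1621, 1889 and 1623 in GMPs in Daxx-KO and at 208, 163 and 466 in KLS cells and 1541, 1224 and 1656 in GMPs of WT, a difference of −1.86 (SE 0.30, unadjusted p 9.8e-05, adjusted p 0.36). Its rise in Daxx-KO was not called without animal 22, 23 or 24 (adjusted p between 0.073 and 0.12). By list, the share of unadjusted p values under 0.05 for the difference was highest in the lymphoid priming (8 of 19), MHC class II (4 of 10) and plasma cell (4 of 13) lists and lowest in the ribosome biogenesis (0 of 32), late granule (0 of 17), imprinted (0 of 15) and NADPH oxidase (0 of 8) lists, beside 4.51% of all genes.

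**Figure D5:**
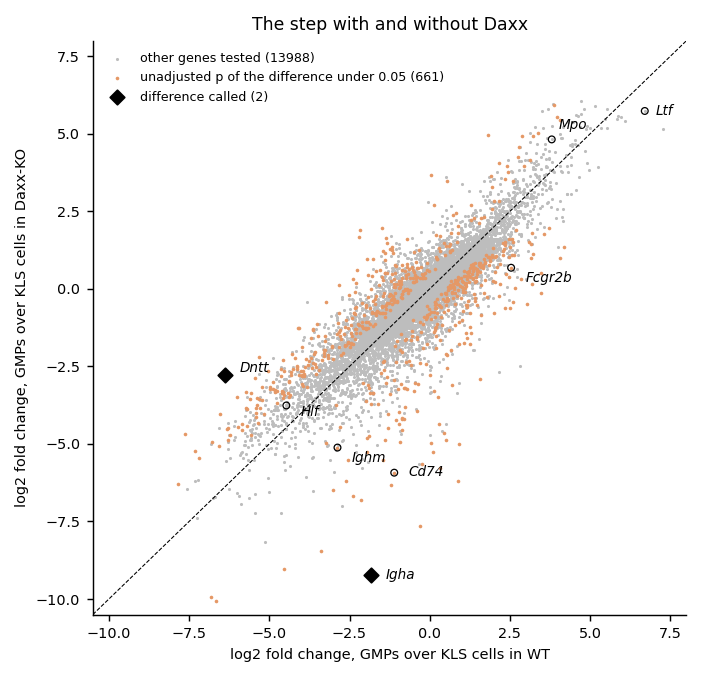
Each point is a tested gene; the x axis is its log2 fold change, GMPs over KLS cells, in WT and the y axis that in Daxx-KO, with the dashed line where they are equal. Diamonds mark Dntt and Igha, whose difference was called, and orange points the 661 genes with an unadjusted p of the difference under 0.05.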

How the data were processed

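RNA from KLS cells and GMPs sorted from bone marrow was sequenced in bulk. Per the labels it was extracted with Trizol and prepared with the NuGEN Ovation SoLo kit, while the methods of the study give another kit for steady-state cells, so the kit is not settled. The signal values used here are read counts per gene that the authors divided by 1 size factor per library and deposited as normalised counts, in 1 table per cell type (mm10, GENCODE release M14). The submitters' processing notes name CASAVA 1.8.4, cutadapt 1.13, STAR 2.5.3 and DESeq2 1.16.1. The counter and its use of strand are not given in the sources used here, so genes that overlap others, 49 of 123 named genes with coordinates, may share reads. Coordinates are those of GENCODE release M21 on GRCm38.

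In each column 100% of values above 0 were whole reads within 0.01 after division by the step of that column, which gave the depths. Groups came from the labels. The GMP columns carry animal numbers that only KLS labels tie to a genotype. No label gives number 80. That animal was placed in WT because the KLS column of the same name carries a control suffix in the deposited counts of repeat elements. These shared numbers are those of animals, so libraries were paired. Deviations of the 2 libraries of an animal from their group means correlated weakly (Pearson's r −0.02, 0.05 and 0.10 in Daxx-KO, 0.06, 0.14 and 0.17 in WT, across 14649 genes). Of 111 columns of values per sample, 95 were not used.

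The 2 tables were joined by gene and rescaled together by median-of-ratios factors over 14474 genes above 0 in all 12 libraries. Genes with a mean of 10 or more were fitted with limma 3.58.1 (R 4.3.3), with a trend, on log2(value + 1), over Daxx-KO and WT libraries with the animal as a block, for the step in each genotype and for the difference between the steps. A fold change on this scale understates that of low genes. P values are two-sided, adjusted by Benjamini-Hochberg over all genes tested, and a gene was called under 0.05. The alternatives were TMM factors, the deposited scale, equal library totals, a pseudocount of 5, other filters, no block, edgeR 4.0.16 and DESeq2 1.42.0 on recovered reads, added DKO libraries, the Daxx-KO libraries alone, a minimum 2-fold change, and leaving out each animal. With 3 animals a group, p values measure a spread pooled over the Daxx-KO and WT animals and moderated across genes. The SE and p value of a Daxx-KO step are thus not those of the 3 Daxx-KO animals alone. With the 6 Daxx-KO libraries alone 4612 genes were called for the step.

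The comparison and the 35 gene lists were chosen with earlier results of these data known. The text names the 12 largest rises and falls with a mean of 100 or more and no overlap, up to 4 called and 2 other genes per list (any member of 5 lists), and genes used as checks, and says where a gene was added. Some genes that the rule names are not reported here.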

Additional observations from a re-analysis of the deposited data

Results flagged for a closer look

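In 2 genes the step from KLS cells to GMPs differed between Daxx-KO and WT by the test of the difference itself (limma, adjusted p 0.023 for both). Dntt fell by less in Daxx-KO, with a difference of 3.58 log2 units. Within animals its GMP count was below its KLS count in 6 of 6 animals. The difference was called in 9 of 16 alternatives and not in 7. Igha fell by more in Daxx-KO, with a difference of −7.41 log2 units, and was likewise called in 9 of 16. Its KLS libraries held 700.4, 18864 and 1292 in Daxx-KO, against 10.9, 76.7 and 2604 for WT. Over the plasma cell list the sums were 6799, 37844 and 15313 for KLS cells without Daxx, against 2439.9, 1946 and 18022 for those of WT, and the part of such cells in the difference was not tested.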

How the results depend on the processing

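The count of 5486 genes called for the step was within 1.5 times of the count under 15 of 18 alternatives. It was 1211 when a change above 2-fold was tested, and between 2839 and 6896 when 1 Daxx-KO animal was left out, or between 4965 and 5285 when 1 WT animal was. The lowest counts came without animals 22 and 24. Without the replicate block 5619 genes were called, and 5178 of the 5486 were among them in the same direction. The 2 calls for the difference were 1 with a pseudocount of 5 (Dntt), 1 with edgeR (Igha), 1 with the DKO libraries in the fit (Igha), 25 with DESeq2, 1 without the replicate block (Ryr2, named here after its value was seen), and between 0 and 4 when 1 animal was left out. With DESeq2 the 25 included both genes. Of 135 genes followed, 1 changed sign: Daxx, close to 0 in the step, was at 0.023 with TMM factors, 0.0004 with a pseudocount of 5, and between −0.16 and 0.29 when 1 Daxx-KO animal was left out. Of the combinations of gene and alternative, 2312 kept direction and call, 99 lost the call (33 of them under the 2-fold test) and 13 gained it. Of the list medians under 18 alternatives, 569 moved by less than the spread between the animals and 43 by more, 14 of them on the deposited scale and 10 with equal totals. Low counts limit the fold changes of genes near 0 in 1 cell type. In the difference the median SE was 0.36, which limits what 3 animals a genotype can show.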

Other observations

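The split of calls into higher and lower differed between kinds of genes, beside 17.5% higher and 20% lower over all genes. Protein-coding genes were called higher in 2383 and lower in 2623 of 12806 tested, a split near even, while long intergenic non-coding RNAs were called higher in 26 and lower in 106 of 424, and antisense transcripts higher in 9 and lower in 60 of 259. Processed pseudogenes ran the other way, with 99 higher and 4 lower of 524. In the long intergenic, antisense and pseudogene kinds, calls in the more frequent direction were near the shares of all genes or little above them. What set these kinds apart was few calls in the other direction. Reads of processed pseudogenes can come from their parent genes, and reads of antisense transcripts from the opposite strand, and neither was tested here. Immunoglobulin V segments were called lower in 33 of 93 and higher in 0. Segments such as Igkv12-44 passed the filter on the mean through KLS counts, with Daxx-KO means of 866.5 in KLS cells and 0.7 in GMPs. For such segments a call of lower was favoured in advance, so this split is no separate support.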
